A study of Mus musculus with 7 samples.

Results

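The 7 genes described here encode steps of the Ras, Raf, MEK and ERK cascade. They were chosen by name, as the rows whose Ensembl identifiers map to Hras, Nras, Araf, Braf, Map2k1, Map2k2 and Mapk3, and are 7 of the 55416 gene identifiers counted. RNA-seq was performed on hippocampi of age-matched male mice of the outbred CD1 stock. Untreated (control) mice gave 3 libraries (replicates 1 to 3). Mice injected intraperitoneally with ONX-0914, an inhibitor of the immunoproteasome, at 10 mg/kg and 2 times per week for 2 months gave 2 libraries (replicates 1 and 2). Mice injected with an equal volume of DMSO, the vehicle, on the same schedule gave 2 libraries (replicates 2 and 3). Control mice received no injection, so the comparison of DMSO with control covers the vehicle and the injections together. No label says whether each library came from a separate mouse or from pooled tissue, so the tests measure the spread between these libraries.

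In this cascade, an activated receptor recruits adaptors and exchange factors that load Ras proteins with GTP. GTP-bound Ras activates Raf kinases, Raf phosphorylates the MEK kinases, and MEK phosphorylates the ERK kinases, which then act on cytoplasmic and nuclear targets. In hippocampal neurons the cascade is engaged by calcium entry and by neurotrophin receptors, and it is known for its part in long-lasting synaptic plasticity. Transcript levels do not report phosphorylation, so the activity of the cascade was not measured here.

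Gene counts summed to between 2842675 and 3877006 per library, except in ONX-0914 replicate 2 with 13782270. The 2 ONX-0914 libraries differed from each other far more than other libraries of 1 group did. Their counts gave a chi-square of 76.9 per degree of freedom, against 2.50 to 3.20 for the pairs of control or DMSO libraries. Markers of CA1, CA3 and dentate gyrus were present in all control libraries, with summed levels of 1278 to 1413, 486 to 507 and 405 to 516 CPM (counts scaled to library size), respectively. In ONX-0914 replicate 1, the summed CA1 and dentate gyrus markers were at 0.225 and 0.289 of the control mean, while 8 of 8 thalamus and midbrain markers and 8 of 8 striatum markers lay above the control range, at 9.85 and 6.21 times the control mean. In ONX-0914 replicate 2, the CA1, dentate gyrus, thalamus and midbrain, and striatum sums were at 0.763, 0.749, 1.25 and 0.632 of the control mean. The CA3 sums were at 0.880 and 0.909 of the control mean in ONX-0914 replicates 1 and 2. Markers of endothelium and blood were higher in both ONX-0914 libraries. The endothelium sums were at 1.75 and 1.60 times the control mean in replicates 1 and 2, with 6 of 6 markers above the control range in each, and the blood sums were at 2.83 and 24.6 times, with 4 of 5 markers above it in each. In replicate 2, mitochondrially encoded genes took 3.71% of the counts against 0.818% to 1.59% in the other libraries. Interneuron, astrocyte and oligodendrocyte sums were at 2.14, 1.05 and 1.49 of the control mean in ONX-0914 replicate 1. In replicate 2 they were at 1.03, 0.665 and 0.658. Some marker lists thus moved together with ONX-0914 and others differed between its 2 libraries. The part of these markers in the values below was not tested. Where a marker list was lower, fewer cells of a type and less RNA per cell cannot be told apart in whole tissue.

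**Figure D1:**
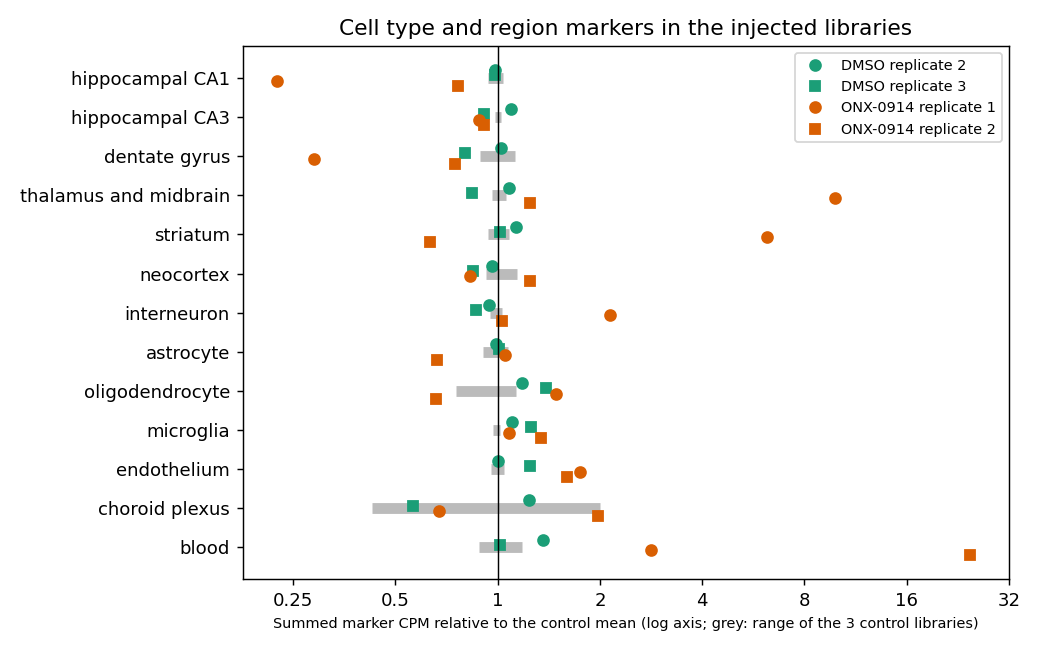
Summed CPM of 13 marker lists in the DMSO and ONX-0914 libraries as a multiple of the control mean (log axis), with the control range as a grey bar. The thalamus and midbrain and the striatum lists stand at 9.85 and 6.21 in ONX-0914 replicate 1, and the blood list stands at 24.6 in ONX-0914 replicate 2.

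The largest difference within the cascade was found in a MEK gene, Map2k1 (ENSMUSG00000004936), which encodes MEK1. Its paralog Map2k2 (ENSMUSG00000035027) encodes MEK2. The 250 bases before the annotated start of both genes are shown because the Map2k1 to Map2k2 ratio was lower in both ONX-0914 libraries. They are written 5′ to 3′ on the strand of the gene, from RefSeq on GRCm38.p6, at chr9:64253606-64253855 on the minus strand for Map2k1 and at chr10:81105665-81105914 on the plus strand for Map2k2. RefSeq windows were at hand for 6 of the 7 genes, the exception being Mapk3. Capitals mark matches, on either strand, to GGGCGG, the element that Sp factors bind, to the element CCAAT, and to CCGGAA, the core that ETS factors bind, among them the ERK substrate Elk1. None of these matches overlapped another in these windows.
Map2k1: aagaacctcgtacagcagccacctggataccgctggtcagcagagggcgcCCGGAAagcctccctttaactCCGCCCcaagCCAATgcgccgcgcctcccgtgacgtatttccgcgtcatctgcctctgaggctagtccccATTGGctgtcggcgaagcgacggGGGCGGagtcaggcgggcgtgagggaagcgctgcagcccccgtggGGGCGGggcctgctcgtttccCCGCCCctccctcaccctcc
Map2k2: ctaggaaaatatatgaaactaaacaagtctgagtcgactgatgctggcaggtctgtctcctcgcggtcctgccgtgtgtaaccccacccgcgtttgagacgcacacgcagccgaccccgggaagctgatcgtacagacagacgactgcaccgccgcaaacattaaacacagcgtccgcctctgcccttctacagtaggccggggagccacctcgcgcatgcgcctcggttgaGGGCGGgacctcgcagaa
The Map2k1 window held 4 Sp elements, 2 CCAAT elements and 1 ETS core, and 68.4% of its bases were G or C. The Map2k2 window held 1 Sp element, no CCAAT element and no ETS core, with 59.6% G or C. Over all 32851 RefSeq windows of this length the median was 52.4% G or C, and 32.7% held the Sp element, 33.8% the CCAAT element and 12% the ETS core. A cyclic AMP response element (TGACGTCA) was in neither window, in 1.55% of all windows, and 2 times in the window of Braf. A TATA box (TATAAA) was in none of the 6 windows and in 12.4% of all windows. The deposited data hold no measurement on these stretches, so the matches are a description of the sequence.

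The level of Map2k1 was 613, 743 and 726 CPM in control replicates 1, 2 and 3, 690.3 and 706 CPM in DMSO replicates 2 and 3, and 368 and 249 CPM in ONX-0914 replicates 1 and 2. Both ONX-0914 libraries lay below all 5 others, whereas the DMSO libraries lay within the control range. The group means were 694 ± 70.6 (SD, n = 3), 698 ± 11.2 (SD, n = 2) and 309 ± 84.1 CPM (SD, n = 2) for control, DMSO and ONX-0914. Against control, Log2FC in ONX-0914 was −1.17 (SE 0.22, unadjusted 95% interval −1.69 to −0.66), that is 0.444 of the control level. In the edgeR quasi-likelihood test this difference missed the threshold of 0.05, with an adjusted p (FDR) of 0.0756. By its unadjusted p, Map2k1 ranked among the first 0.958% of the 13152 genes tested.

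Against DMSO, Log2FC of Map2k1 in ONX-0914 was −1.18 (SE 0.24, interval −1.73 to −0.63), with an edgeR FDR of 0.127. DMSO against control gave a Log2FC of 0.01, with an interval of −0.49 to 0.50. These comparisons share libraries and are not independent of each other. DESeq2 called Map2k1 against control at an adjusted p of 0.00032. Over 18 alternative settings Log2FC lay between −1.49 and −0.92, and the edgeR FDR reached 0.385 when control replicate 2 was left out. The estimate rested on both ONX-0914 libraries, with values of −1.49 when replicate 1 was left out and −0.92 when replicate 2 was left out. Relative to the control mean, the log2 level was −0.91 in ONX-0914 replicate 1 and −1.47 in replicate 2, beside CA1 marker sums at 0.225 and 0.763, dentate gyrus sums at 0.289 and 0.749, and endothelium sums at 1.75 and 1.60 of the control mean. The part of these markers in the level of Map2k1 was not tested.

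Map2k2 was far less abundant. Its level was 40.3, 42.8 and 44.3 CPM in control, 43.5 and 48.5 CPM in DMSO, and 35.7 and 66.9 CPM in ONX-0914 replicates 1 and 2. Hence, the ONX-0914 libraries lay on opposite sides of all 5 others. Log2FC against control was 0.29 (SE 0.26, interval −0.31 to 0.88, edgeR FDR 0.560), with −0.26 when ONX-0914 replicate 2 was left out and 0.64 when replicate 1 was left out. DMSO against control gave 0.11 with an interval of −0.50 to 0.72.

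The ratio of both MEK transcripts can be read within a library without scaling to library size. Map2k2 made up 6.16%, 5.45% and 5.75% of the summed MEK counts in control, and 5.92% and 6.43% in DMSO. In ONX-0914 replicates 1 and 2 the share was 8.85% and 21.2%, with exact (Clopper-Pearson) 95% binomial intervals of 7.51% to 10.4% and 20.0% to 22.4% that cover counting error only. Both ONX-0914 libraries had a larger Map2k2 share than any of the other 5. For each Map2k2 count there were 15.2, 17.4 and 16.4 Map2k1 counts in control, 15.9 and 14.5 in DMSO, and 10.3 and 3.72 in ONX-0914. The log2 ratio of Map2k1 to Map2k2 was lower in ONX-0914 by 1.40 than in control (exact two-sided permutation test, p = 0.1, the smallest value that 3 against 2 libraries allow). Against the 5 other libraries pooled, the difference was −1.36 (exact permutation p = 0.0476, again the smallest possible). After Benjamini–Hochberg adjustment over the 6 ratio comparisons the exact permutation p was 0.2, above the threshold. Leaving out ONX-0914 replicate 1 gave −2.09 and leaving out replicate 2 gave −0.62, so its size depended on which library was used.

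**Figure D2:**
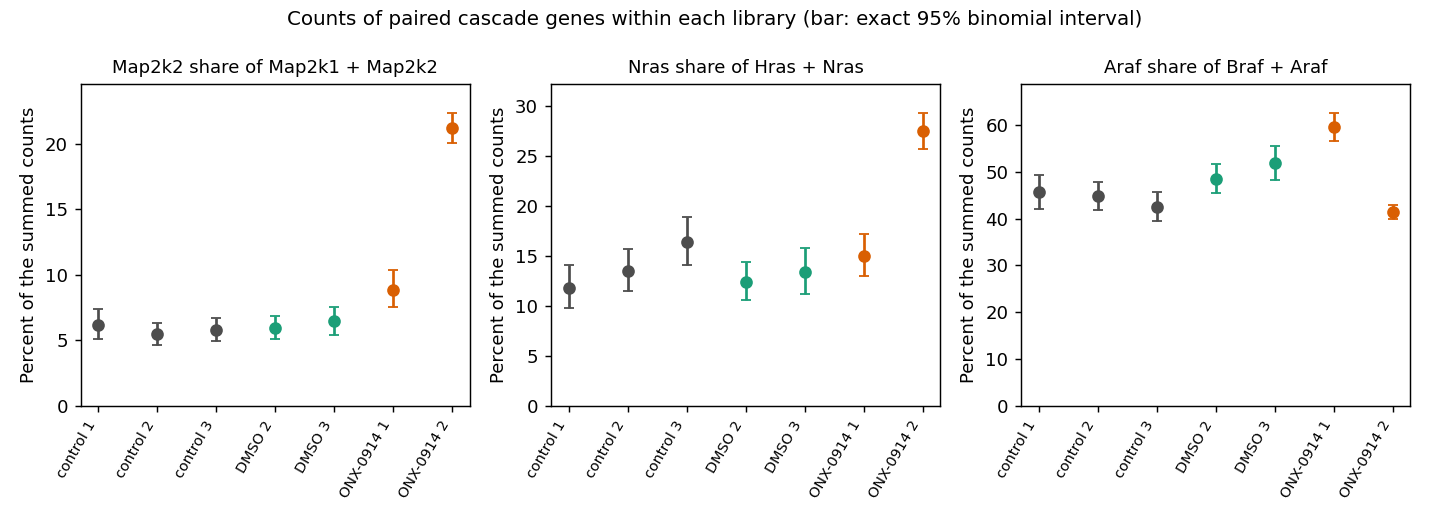
Share of the second gene of each pair in the summed counts of the pair, in percent, for each of the 7 libraries, with exact 95% binomial intervals. The Map2k2 share stays at 5.45% to 6.43% without ONX-0914 and reaches 8.85% and 21.2% with it, while the Araf share in ONX-0914 lies at 59.7% and 41.5%, above and below the 5 others.

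Among the Ras genes, Hras (ENSMUSG00000025499) encodes a Ras protein abundant in neurons. Its level was 277, 246 and 216 CPM in control, 282 and 279.9 CPM in DMSO, and 238 and 113 CPM in ONX-0914 replicates 1 and 2. Both DMSO libraries lay slightly above the control range, ONX-0914 replicate 1 lay inside it, and ONX-0914 replicate 2 lay below all other libraries. Log2FC was −0.49 against control (SE 0.30, interval −1.18 to 0.19, edgeR FDR 0.391) and −0.68 against DMSO (interval −1.42 to 0.06, edgeR FDR 0.360). Without ONX-0914 replicate 1 the Log2FC against control was −1.14, and without replicate 2 it was −0.05, so the difference was carried by 1 library.

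Nras (ENSMUSG00000027852), a Ras gene expressed in many cell types, had a level of 37.1, 38.2 and 42.4 CPM in control, 39.7 and 43.2 CPM in DMSO, and 42.0 and 42.7 CPM in ONX-0914. Log2FC against control was 0.11 (interval −0.27 to 0.50, edgeR FDR 0.736), an interval that leaves out any 2-fold difference. Nras made up 11.8% to 16.4% of the summed Hras and Nras counts without ONX-0914, and 14.99% and 27.5% with it. The log2 ratio of Hras to Nras was lower by 0.69 in ONX-0914 than in control (exact permutation p = 0.3) and by 0.74 than in the 5 others (exact permutation p = 0.0952).

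The Raf genes showed opposite patterns across the libraries. Araf (ENSMUSG00000001127) had 122, 136 and 117 CPM in control, 131 and 139 CPM in DMSO, and 157 and 115 CPM in ONX-0914. ONX-0914 replicate 1 was the highest and replicate 2 the lowest of all 7 libraries, and Log2FC against control was 0.12 (interval −0.30 to 0.54, edgeR FDR 0.744). Braf (ENSMUSG00000002413), the main Raf gene of forebrain neurons, had 145, 167 and 158 CPM in control, 139 and 128 CPM in DMSO, and 106 and 163 CPM in ONX-0914.
In Braf, ONX-0914 replicate 1 was the lowest of the 7 libraries and replicate 2 lay within the control range. Log2FC was −0.22 against control (SE 0.21, interval −0.70 to 0.26, edgeR FDR 0.582), 0.01 against DMSO, and −0.23 in DMSO against control (interval −0.72 to 0.25). Without ONX-0914 replicate 2 the Log2FC of Braf against control was −0.57, and without replicate 1 it was 0.04. Araf made up 42.6% to 52.0% of the summed Raf counts of this pair in the 5 libraries without ONX-0914, and 59.7% and 41.5% in ONX-0914. Thus, the log2 ratio of Braf to Araf in ONX-0914 differed from control by −0.36 (exact permutation p = 0.5), with 1 library on each side.

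Mapk3 (ENSMUSG00000063065), which encodes ERK1, had 121, 118 and 118 CPM in control, 112 and 121 CPM in DMSO, and 127 and 124 CPM in ONX-0914. Both ONX-0914 libraries lay above all 5 others, yet by little. Log2FC was 0.08 against control (SE 0.15, interval −0.26 to 0.42, edgeR FDR 0.798), 0.10 against DMSO (edgeR FDR 0.763) and −0.03 in DMSO against control. The interval against control leaves out a difference of the size seen for Map2k1.

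**Figure D3:**
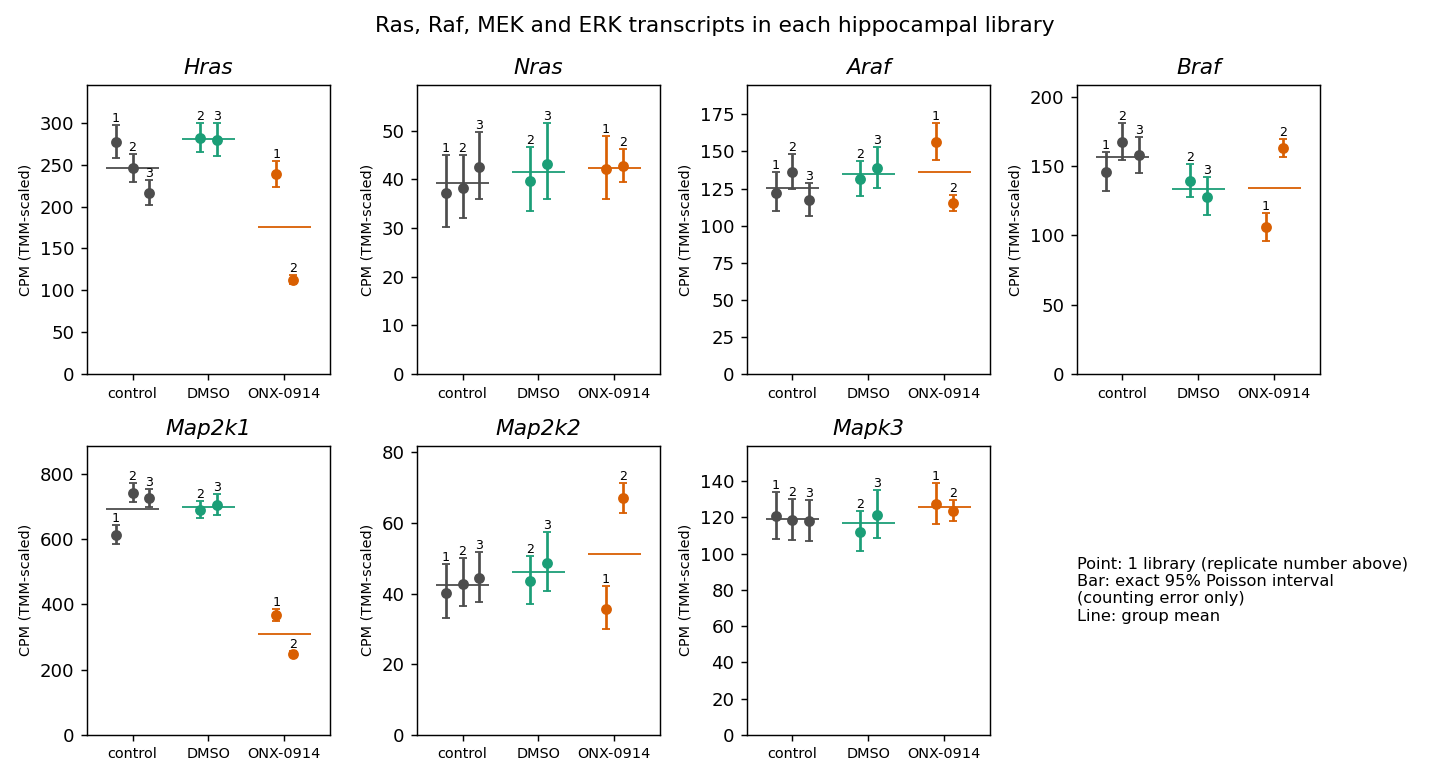
Level of each gene in CPM (TMM-scaled) in every library, with replicate numbers, exact 95% Poisson intervals and group means as lines. The ONX-0914 points of Map2k1 (368 and 249 CPM) lie below all others, those of Hras, Araf, Braf and Map2k2 lie apart from each other, and those of Nras and Mapk3 lie close together.

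Thus, 0 of 7 genes passed the edgeR threshold for ONX-0914 against control, where 0.114% of all genes did. At an unadjusted p under 0.05 there was 1, Map2k1 (18.6% of all genes), and DESeq2 called 1 (2.88% of all genes) and limma voom 0 (0.137%). For DMSO against control edgeR called 0 of 7 (0.0152% of all genes), with 0 at an unadjusted p under 0.05 (2.65% of all genes), 0 by DESeq2 (0.0684%) and 0 by limma voom (0%). For ONX-0914 against DMSO it called 0 of 7 (0.0456% of all genes), with 1 at an unadjusted p under 0.05 (14.7% of all genes), 1 by DESeq2 (1.81%) and 0 by limma voom (0.0456%). In 1 of 7 genes the ONX-0914 pair sat wholly under the control range (16.3% of all genes), and in 1 of 7 wholly over it (16.9%). Against all 5 other libraries these were the same genes, Map2k1 below (11.3% of all genes) and Mapk3 above (11.4%). The number of members outside the control range was 3 of 7 in DMSO replicate 2 (54.9% of all genes), 6 of 7 in DMSO replicate 3 (61.1%), 5 of 7 in ONX-0914 replicate 1 (69.1%) and 6 of 7 in ONX-0914 replicate 2 (78.8%). These shares over 7 genes lay near those over all genes and mark nothing particular to the cascade. The median Log2FC of the 7 genes was 0.08 against control in ONX-0914 and 0.08 in DMSO, beside medians of 0.05 and −0.0032 over all genes tested. With library sizes taken as total counts, the median over all genes in ONX-0914 moved to 0.19 and that of the 7 genes to 0.22, while Map2k1 stood at −1.04.

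**Figure D4:**
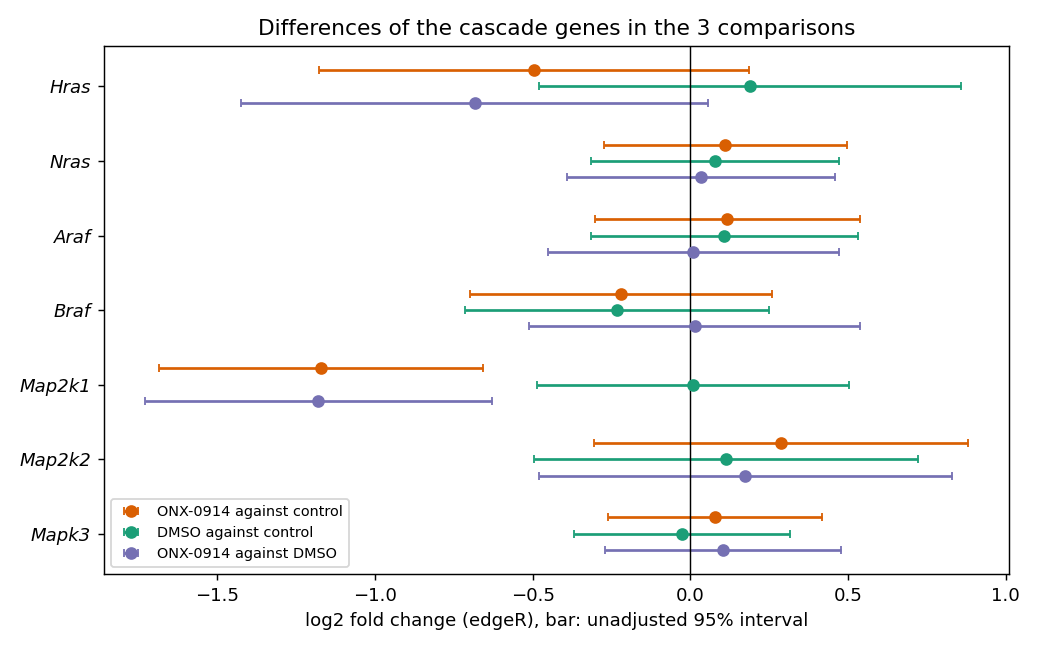
Log2 fold change of the 7 genes in the 3 comparisons, from edgeR, with unadjusted 95% intervals as bars. The intervals of Map2k1 in ONX-0914 against control (−1.69 to −0.66) and against DMSO (−1.73 to −0.63) leave out 0, and all others include it.

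Levels of different genes were compared per kilobase of exon model (GENCODE M21). Map2k1 was the most abundant member in control, at 205 ± 20.8 CPM per kilobase (SD, n = 3), followed by Hras at 66.0 ± 8.16, Mapk3 at 52.7 ± 0.625, Araf at 19.1 ± 1.501, Braf at 11.3 ± 0.793, Map2k2 at 7.50 ± 0.361 and Nras at 7.36 ± 0.528 CPM per kilobase. The control libraries did not overlap between neighbours in this order, except that Map2k2 and Nras could not be told apart. In ONX-0914 the means were 91.0 CPM per kilobase for Map2k1, 55.6 for Mapk3, 47.0 for Hras, 20.8 for Araf, 9.68 for Braf, 9.07 for Map2k2 and 7.95 for Nras. Map2k1 thus remained the most abundant, while Hras was above Mapk3 in ONX-0914 replicate 1 and below it in replicate 2. These values depend on the exon model, since the expressed isoforms were not measured.

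Across the 7 libraries, log2 CPM of Hras correlated with that of Map2k1 (Pearson r = 0.81) and inversely with that of Map2k2 (r = −0.80), and Araf inversely with Braf (r = −0.80). These points share the 2 divergent ONX-0914 libraries, and the values are a description. Of 9520 genes with a mean of at least 10 CPM, those most like Map2k1 were Mrfap1, Vps53 and R3hdm4 (r = 0.992, 0.991 and 0.991 over 7 libraries). R3hdm4 had 401, 423 and 410.3 CPM in control, 379 and 418 CPM in DMSO, and 240.4 and 170.4 CPM in ONX-0914. The genes most like Map2k2 were Ptov1, Fyco1 and Fam53a (r = 0.990, 0.977 and 0.977), and Ptov1 had 131.8 CPM in ONX-0914 replicate 2 against 55.6 to 82.8 CPM elsewhere. Those most like Hras were Cby1, Ybx3 and Utp6 (r = 0.998, 0.997 and 0.997).
For Braf they were Adcy1, Slc16a7 and Sipa1l1 (r = 0.993, 0.978 and 0.9746). Adcy1, a calcium-stimulated adenylyl cyclase gene, had 534 CPM in ONX-0914 replicate 1 and 928 to 1759 CPM elsewhere. For Araf they were Nkain4, Slc12a2 and Itgb4 (r = 0.974, 0.972 and 0.970), for Nras Tgs1, Srrm3 and Kremen1 (r = 0.973, 0.945 and 0.917), and for Mapk3 Meg3, Telo2 and A830082K12Rik (r = 0.951, 0.946 and 0.944).

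Genes around the cascade were read from 9 further lists with 113 symbols, of which 104 genes were tested. For ONX-0914 against control, edgeR called 0 of 104 (0.114% of all genes), with 17 at an unadjusted p under 0.05 (18.6% of all genes). DESeq2 called 2 (2.88% of all genes) and limma voom 0 (0.137%). Both ONX-0914 libraries lay below the control range in 15 genes (16.3% of all genes) and above it in 15 (16.9%). Positive Log2FC values were found for 58 genes and negative ones for 46, with a median of 0.05, equal to that over all genes tested to 2 decimals. With library sizes taken as total counts, 71 were positive and 33 negative. For DMSO against control edgeR called 0 of 104 (0.0152% of all genes), with 10 at an unadjusted p under 0.05 (2.65% of all genes). DESeq2 called 2 (0.0684% of all genes) and limma voom 0 (0%). For ONX-0914 against DMSO edgeR called 1, Arc (0.0456% of all genes). At an unadjusted p under 0.05, 6 genes were higher and 13 lower, beside 14.7% of all genes.

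Upstream of Ras, 15 receptor tyrosine kinases had a median Log2FC of 0.01 against control in ONX-0914. Fgfr3, a fibroblast growth factor receptor of astrocytes, had a Log2FC of 0.56 (edgeR FDR 0.165), and Kit, the receptor of stem cell factor, −0.65 (edgeR FDR 0.298). The median over 15 adaptors and Ras exchange factors was 0.18. Among them, Rasgrp2, a calcium-responsive exchange factor abundant in striatal neurons and platelets, had 7.49, 7.09 and 5.78 CPM in control, 5.37 and 4.64 CPM in DMSO, and 29.4 and 11.3 CPM in ONX-0914 (Log2FC 1.54, edgeR FDR 0.142). The striatum marker sums were at 6.21 and 0.632 of the control mean in ONX-0914 replicates 1 and 2. Their part in the level of Rasgrp2 was not tested. Grb2, the adaptor that links receptors to exchange factors, had a Log2FC of −0.49 (edgeR FDR 0.173). Both ONX-0914 libraries lay below all others for Grb2, as in 11.3% of all genes. Over 9 GTPase-activating proteins, which switch Ras off, the median was −0.03, with 0.52 for Nf1 (edgeR FDR 0.254) and −0.57 for Rasal1 (edgeR FDR 0.388). Over 8 other core genes and Ras and Raf relatives the median was 0.20, and the small GTPase gene Rap1a stood at −0.37 (edgeR FDR 0.464).

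Around Raf and MEK, 8 of 9 scaffolds and regulators had a negative Log2FC in ONX-0914 against control (median −0.28). Of the 9, edgeR called 0 (0.114% of all genes), with 4 at an unadjusted p under 0.05 (18.6% of all genes). DESeq2 called 1 (2.88% of all genes) and limma voom 0 (0.137%). With library sizes taken as total counts 7 of 9 were negative. The pattern rested on ONX-0914 replicate 2, since without it 4 of 9 were negative and the median was 0.02. Cnksr2, a synaptic scaffold that binds Raf, had 449, 465 and 479 CPM in control, 419 and 314 CPM in DMSO, and 101 and 287 CPM in ONX-0914 (Log2FC −1.25, edgeR FDR 0.168). Both ONX-0914 libraries lay below the others, as in 11.3% of all genes, with the lowest level in replicate 1. In replicate 1 the CA1, dentate gyrus, thalamus and midbrain, and striatum sums were at 0.225, 0.289, 9.85 and 6.21 of the control mean. The part of these markers in the level of Cnksr2 was not tested. Iqgap1, a scaffold for MEK and ERK, had a Log2FC of 0.66 (edgeR FDR 0.241).

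Downstream, the median over 12 phosphatases and feedback inhibitors of ERK was 0.10. Dusp4, a nuclear phosphatase that inactivates MAP kinases and is itself induced by ERK, had 33.9, 35.2 and 41.6 CPM in control, 43.5 and 32.8 CPM in DMSO, and 10.8 and 20.6 CPM in ONX-0914 (Log2FC −1.19, edgeR FDR 0.127). Ptpn5, the striatum-enriched phosphatase STEP, had a Log2FC of 0.65 (edgeR FDR 0.234), with levels of 286 and 168 CPM under ONX-0914 (replicates 1 and 2) beside 109 to 162 CPM in the other libraries. Over 12 ERK substrates the median was 0.03. Rps6ka1, which encodes the ERK-activated kinase RSK1, had 7.49, 10.1 and 7.99 CPM in control, 13.95 and 12.5 CPM in DMSO, and 21.4 and 17.7 CPM in ONX-0914. Its Log2FC of 1.18 (SE 0.24, edgeR FDR 0.0901) had the lowest FDR of the 104 genes in this comparison, and its DMSO libraries also lay above all controls. Its relative Rps6ka3 (RSK2) had a Log2FC of 0.53 (edgeR FDR 0.210).

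The 12 transcripts that ERK output is known to induce had a higher median in DMSO than in control or ONX-0914. In DMSO against control 12 of 12 had a positive Log2FC, with a median of 0.92 beside −0.0032 over all genes. The values ranged from 0.01 to 3.49, so the rise was uneven over the list, and its genes are not replicates. Leaving out any 1 library kept 11 or 12 of them positive, with medians of 0.67 to 1.07. The edgeR test called 0 of them (0.0152% of all genes), with 6 at an unadjusted p under 0.05 (2.65% of all genes). DESeq2 called 2 (0.0684% of all genes) and limma voom 0 (0%). In ONX-0914 against control, 9 of 12 were positive with a median of 0.17, and in ONX-0914 against DMSO 9 of 12 were negative with a median of −0.97. Arc, an immediate early gene of active neurons, had 107, 88.9 and 95.3 CPM in control, 448 and 345 CPM in DMSO, and 34.5 and 66.0 CPM in ONX-0914. The 3 groups did not overlap. Arc fell in ONX-0914 relative to DMSO (Log2FC −2.96, SE 0.32, edgeR FDR 0.0371), whereas it missed the threshold in DMSO against control (Log2FC 2.03, edgeR FDR 0.187) and in ONX-0914 against control (Log2FC −0.93, edgeR FDR 0.162). The call was not kept when any 1 control or DMSO library was left out (edgeR FDR 0.182 to 0.398), nor with total counts (0.0564), the replicate block (0.238) or a fit of these groups alone (0.738). Fos, named after its values were seen, had a Log2FC of 1.66 in DMSO against control (edgeR FDR 0.313) and of -1.52 in ONX-0914 against DMSO (edgeR FDR 0.101). Phlda1, a further target, had a Log2FC of 1.08 in ONX-0914 against control (edgeR FDR 0.175) and of 0.33 in DMSO against control.
The 7 cascade genes had Log2FC between −0.23 and 0.19 in DMSO against control.

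In the parallel MAP kinase cascades of JNK, p38 and ERK5, the median over 12 genes was −0.02 in ONX-0914 against control. Mapk11, a p38 gene, had a Log2FC of 0.53 (edgeR FDR 0.210), and Mapk9, which encodes JNK2, one of 0.38 (edgeR FDR 0.273). In both genes the ONX-0914 libraries lay above all others, a pattern found in 11.4% of all genes. Mapk9 had 235 and 196 CPM in ONX-0914 against 138 to 169.9 CPM elsewhere.

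**Figure D5:**
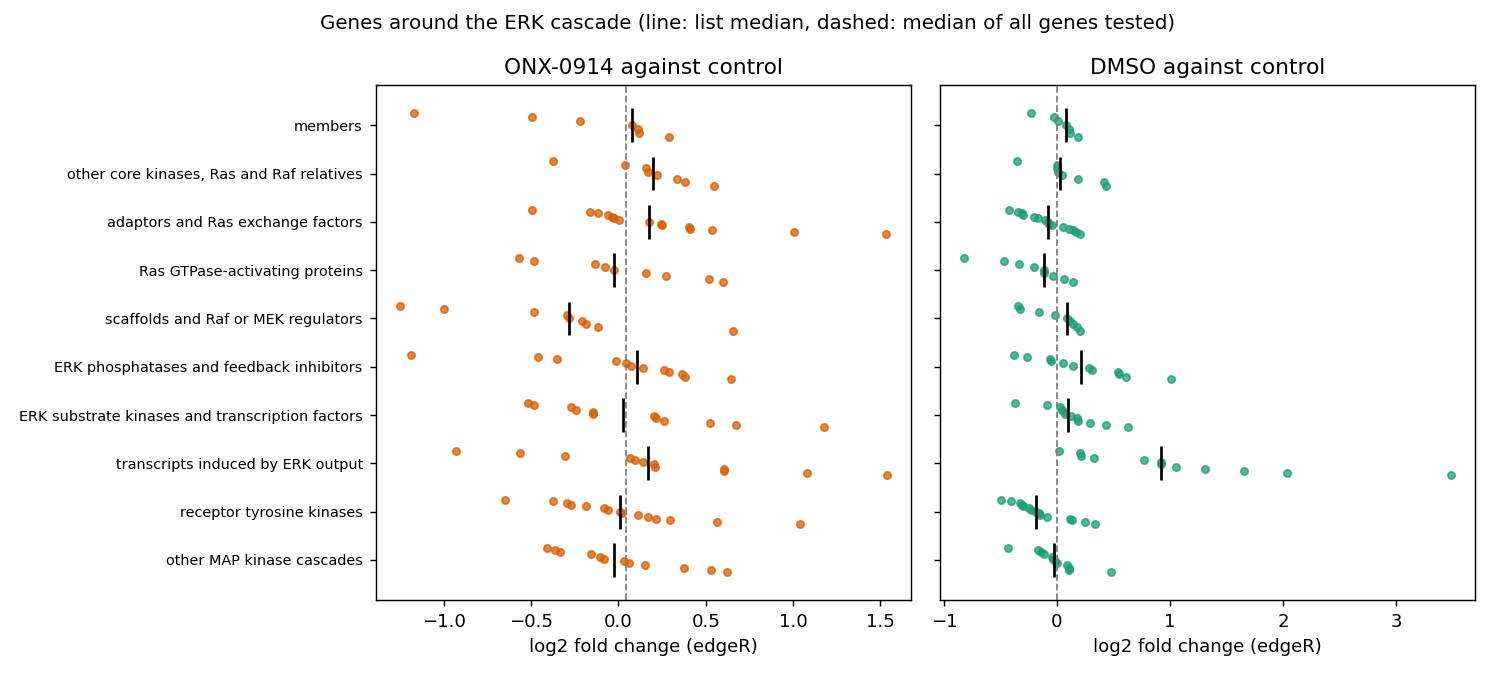
Log2 fold change (edgeR) of every tested gene in the cascade and in 9 lists around it, for ONX-0914 against control and DMSO against control, with list medians as lines and the median over all genes dashed. The transcripts induced by ERK output have a median of 0.92 in DMSO and 0.17 in ONX-0914, and the scaffolds and regulators a median of −0.28 in ONX-0914.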

How the data were processed

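Hippocampal RNA from 7 libraries was analysed. Per the labels and methods, RNA with an integrity number of at least 8 was made into directional libraries and sequenced single-end. The submitters' processing notes name Trimmomatic 0.39, STAR 2.7.3a, featureCounts 2.00 and GRCm39. The annotation release and the strand setting are not given in the sources used here. Whether antisense reads were counted apart is therefore not known, and reads of near-identical genes may not be told apart. The authors deposited raw counts per gene and library. Summary lines of unassigned reads were left out (89.6% to 91.4% of reads were assigned). Symbols and exon lengths came from GENCODE M21. The lowest member count was 104. Standard errors did not follow the counts and were larger for members whose ONX-0914 libraries lay far apart.

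The methods name the edgeR function glmQLFTest with Benjamini–Hochberg adjustment, which was used here over 13152 genes at 0.05 (edgeR 4.0.16, R 4.3.3). The filter (filterByExpr), the TMM scaling (factors of 0.965 to 1.1) and the design of 1 mean per group over all 7 libraries were chosen here, and those of the study are not given in the sources used here. CPM used TMM-scaled libraries. Ratios of gene pairs were tested with an exact permutation test. Alternatives were DESeq2 1.42.0, limma 3.58.1 voom, other scaling and filters, a fit of the compared groups alone, the legacy fit, the replicate block, the 5 libraries without ONX-0914 as 1 group, leaving out each library, and, added after seeing the data, leaving out mitochondrially encoded genes. The steps were tested on simulated counts for ONX-0914 against control. Of 98 genes changed by a log2 of 1, 14 were recovered, and of 102 changed by a log2 of 2, 82 were. Of 103 genes called, 7 were false. Most changes of log2 1 were thus missed in this simulation. The genes named were the 7 members, in each list the 2 genes with the lowest p for ONX-0914 against control and any gene called, and the 3 genes most correlated with each member; 1 gene picked by this rule is not reported here, and Fos was named after its values were seen. The members and lists were chosen with earlier results of these data known.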

Additional observations from a re-analysis of the deposited data

How the results depend on the processing

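For ONX-0914 against control, 15 genes passed the edgeR threshold, against 379 with DESeq2, 578 without a filter, 3 with only these groups fitted, 1 with the replicate block, 343 against the 5 other libraries, and 0 to 7023 when 1 library was left out (0 without any of the controls, 3 without either DMSO library, 7023 and 2594 without ONX-0914 replicates 1 and 2). One member, Map2k1, was then called by DESeq2, without a filter and against the 5 other libraries, and 0 to 3 members when 1 library was left out (3 without ONX-0914 replicate 1 and 2 without replicate 2, where the lone library is assumed to vary like the other groups). For DMSO against control, 2 genes became 9 (DESeq2), 0 (limma voom), 11 (no filter), 0 (at least 10 counts), 141 (these groups alone), 0 (block) and 0 to 146 (1 library left out), with no member called. For ONX-0914 against DMSO, 6 genes became 238 (DESeq2), 11 (RLE), 3 (total counts), 297 (no filter), 10 (at least 10 counts), 0 (these groups alone), 0 (block) and 0 to 6313 (1 library left out), with 1 member called by DESeq2, 1 without a filter, and 0 to 3 with 1 library left out. The cause was not tested.

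Signs turned for small values. Log2FC in ONX-0914 against DMSO became -0.007 (DESeq2), -0.0055 (RLE) and -0.0841 (replicate block) for Araf, and -0.044 (voom) and -0.0007 (RLE) for Braf, and with 1 library left out it ranged from -0.2326 to 0.2132 for Araf, -0.3416 to 0.2752 for Braf, -0.3614 to 0.5377 for Map2k2 and -0.0348 to 0.086 for Nras. In DMSO against control it became -0.0034 (no filter) and, with 1 library left out, -0.074 to 0.0607 for Map2k1, -0.0406 (replicate block) for Map2k2, and -0.086 to 0.0282 (1 library left out) for Mapk3. In ONX-0914 against control, leaving out 1 library gave -0.1278 to 0.3189 for Araf, -0.5744 to 0.0415 for Braf and -0.2559 to 0.6424 for Map2k2, and the log2 ratio of Braf to Araf became -0.8926 to 0.1703 against control and -0.7556 to 0.3073 against the 5 others. Map2k1 to Map2k2 against the 5 others ranged from -2.09 to -0.62, and no exact permutation test passed 0.05 because fewer libraries allow no smaller p. With the replicate block Map2k1 gave an FDR of 0.253 against control. Same-numbered libraries had correlations of deviations from group means of -0.096 to 0.064. In a group of 2 libraries these deviations mirror each other, so the values cannot decide whether the numbers pair the libraries. The block left all 7 members uncalled. At this depth each member had at least 104 counts in every library, and lower counts limited other genes of the lists.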
